A study of Mus musculus with 12 samples.

Results

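The genes described here are 9 CXC chemokine ligand genes of the mouse: Cxcl1, Cxcl2, Cxcl3, Cxcl9, Cxcl10, Cxcl12, Cxcl13, Cxcl14 and Cxcl16. They were chosen by name as members of 1 ligand family, out of 55421 genes counted. Their RNA was measured by sequencing in 12 libraries of microglia, the resident macrophages of the brain, which were sorted by fluorescence from dissociated mouse brain and then deprived of oxygen and glucose in culture (OGD) to imitate ischaemia. WT-deprived is the group of Cx3cr1EGFP reporter microglia after 6 h of OGD, and WT-recovered is the same genotype after OGD followed by 1 day of recovery. KO-deprived and KO-recovered are the matching groups of genotype Slc2a5-/-::Cx3cr1EGFP, in which the gene of the fructose transporter GLUT5 is deleted, with no Cre or cell type named for the deletion. All groups thus carry the reporter allele, and all went through OGD, so no library without OGD was analysed here. Every group held 3 libraries, labelled male, from mice of postnatal days 35 to 40 in the sample fields and 30 to 45 in the protocol. The treatment field of WT-recovered replicate 1 names no recovery, and that library was grouped by its title. The labels do not say that replicates came from separate mice or cultures, so p-values measure only the spread between these libraries, which may be technical.

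CXC chemokines are small secreted proteins that draw leukocytes along a gradient by binding G protein-coupled receptors of the CXCR family. Cxcl1, Cxcl2 and Cxcl3 recruit neutrophils through CXCR2, and their genes are classical targets of the transcription factor NF-kB. Cxcl9 and Cxcl10 are induced by interferons and attract T cells through CXCR3, whereas Cxcl12, Cxcl13, Cxcl14 and Cxcl16 act, respectively, on CXCR4, on the B cell receptor CXCR5, in resting tissues, and as a membrane-bound ligand of CXCR6. In the ischaemic brain, microglia are one of the known sources of such ligands.

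The promoters of 8 of the 9 genes were found in the RefSeq table (GRCm38.p6), and the 250 bases before each start were searched on both strands. The strict NF-kB motif GGAANTTCC was present in 0.813% of all 32851 promoters of that length. Among the 8 genes it occurred in Cxcl1, Cxcl2, Cxcl3 and Cxcl10. The same letters, GGAATTTCC, began 70, 96 and 72 bases before the start of Cxcl1, Cxcl2 and Cxcl3, and GGAAATTCC began 158 bases before that of Cxcl10. The windows from 130 to 31 bases before the start are shown for Cxcl1, Cxcl2 and Cxcl3, which hold the same strict match. With recovery Cxcl3 was called higher in both genotypes, Cxcl1 lower in WT only and Cxcl2 lower in KO only. The windows of Cxcl9 and Cxcl10 are shown as well and hold looser matches only. Cxcl9 has no strict match, and that of Cxcl10 lies outside this window. Capitals mark matches, on either strand, to the looser motif GGNNNTTCC, which includes the strict one and which 15.7% of all promoters hold.
Cxcl1: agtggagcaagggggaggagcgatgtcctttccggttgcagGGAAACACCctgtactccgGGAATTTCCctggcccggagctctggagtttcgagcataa
Cxcl2: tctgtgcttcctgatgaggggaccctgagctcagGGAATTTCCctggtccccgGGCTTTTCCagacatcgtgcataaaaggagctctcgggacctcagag
Cxcl3: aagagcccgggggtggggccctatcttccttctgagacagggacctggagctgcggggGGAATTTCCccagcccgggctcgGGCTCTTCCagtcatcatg
Cxcl9: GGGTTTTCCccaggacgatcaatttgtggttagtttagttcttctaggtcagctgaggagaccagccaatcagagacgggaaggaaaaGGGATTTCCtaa
Cxcl10: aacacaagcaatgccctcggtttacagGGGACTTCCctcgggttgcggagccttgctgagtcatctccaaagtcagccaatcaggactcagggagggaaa

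All of these windows lie on chromosome 5. That of Cxcl1 is chr5:90891115-90891214, that of Cxcl2 is chr5:90903769-90903868 and that of Cxcl3 is chr5:90785971-90786070, all on the plus strand. Those of Cxcl9 (chr5:92328110-92328209) and Cxcl10 (chr5:92348920-92349019) lie on the minus strand. The interferon response motif TTCNNTTTC, held by 7.13% of promoters, matched in Cxcl9, Cxcl10 and Cxcl14. The STAT motif TTCNNNGAA, held by 7.02%, matched in Cxcl14 alone among the 8 genes. Cxcl12 and Cxcl13 held none of the motifs searched. A match is a run of letters and does not show that a factor binds there.

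Libraries held 31509859 to 45347118 counts after OGD and 9885259 to 19915479 after recovery, so low genes were less precise after recovery. Mitochondrial genes took 4.20% to 5.75% of counts after OGD and 4.72% to 18.4% after recovery, the highest in WT-recovered replicate 1. Slc2a5 itself had 45, 40 and 58 counts in WT-deprived and 17, 4 and 17 in KO-deprived, and at most 2 counts in any recovery library, where it checks no label. Microglial markers summed to 2420 to 3430 CPM (counts scaled to a library of 1000000), and 10 of 11 had counts in every group, while Siglech was at 0 in WT-deprived, WT-recovered and KO-recovered. The libraries were labelled male, but Xist, an RNA of female cells, stood at 156, 239 and 334 CPM in WT-deprived, KO-deprived and KO-recovered, and at 0, 0.183 and 0 CPM in the replicates of WT-recovered. After OGD too, Xist was lower in all WT-deprived (151 to 159 CPM) than in all KO-deprived libraries (231 to 244 CPM), and the Y-linked Ddx3y was higher (37.9 to 46.2 against 21.5 to 29.2 CPM). Ddx3y was 44.8 to 49.7 CPM in WT-recovered and 14.7 to 21.5 CPM in KO-recovered. Xist did not overlap between the groups of any of the 4 comparisons, so the sex makeup of the cells cannot be told apart from genotype or from recovery. KO-recovered replicates 1 and 3 carried transcripts of muscle and cartilage (147 and 138 CPM over 8 markers, against at most 9.02 in every other library).

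By exon length, expression among the 9 genes was led by Cxcl16, followed by Cxcl2 and Cxcl14. Pf4, a CXC ligand gene outside the 9, had more CPM than Cxcl16 in every recovery library, from shorter exons (0.721 kb against 3.02 kb). The ranks here are therefore those of the 9 genes and not of the whole family. Per kilobase (kb) of exon, mean Cxcl16 levels were 16.6 ± 1.53, 18.8 ± 1.46, 18.4 ± 0.869 and 18.3 ± 0.616 CPM per kb (SD, n = 3 each) in WT-deprived, KO-deprived, WT-recovered and KO-recovered. In every group its lowest library stood above the highest library of the next gene on that scale. Cxcl2 was second after OGD (8.29 ± 0.438 CPM per kb in WT, 7.32 ± 4.24 in KO). Cxcl14 took that place after recovery, at 10.3 to 13.4 CPM per kb in WT and a mean of 8.36 ± 2.28 (SD, n = 3) in KO. The counts behaved as sums over whole gene bodies, introns included, so length can be taken as the gene's span instead. Cxcl1, Cxcl2, Cxcl3 and Cxcl10 have no base outside their annotated exons, whereas Cxcl14 and Cxcl16 span 7.91 and 6.00 kb. Per kb of span Cxcl16 and Cxcl2 overlapped after OGD (7.61 to 9.15 and 7.79 to 8.66 CPM per kb in WT). On that scale Cxcl14 had rank 5 in WT-deprived, 4 in KO-deprived, 4 in WT-recovered and 3 in KO-recovered. In WT-recovered its range overlapped those of Cxcl3 and Cxcl10. Cxcl9 was the lowest or next to lowest gene in each group on both scales.

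**Figure D1:**
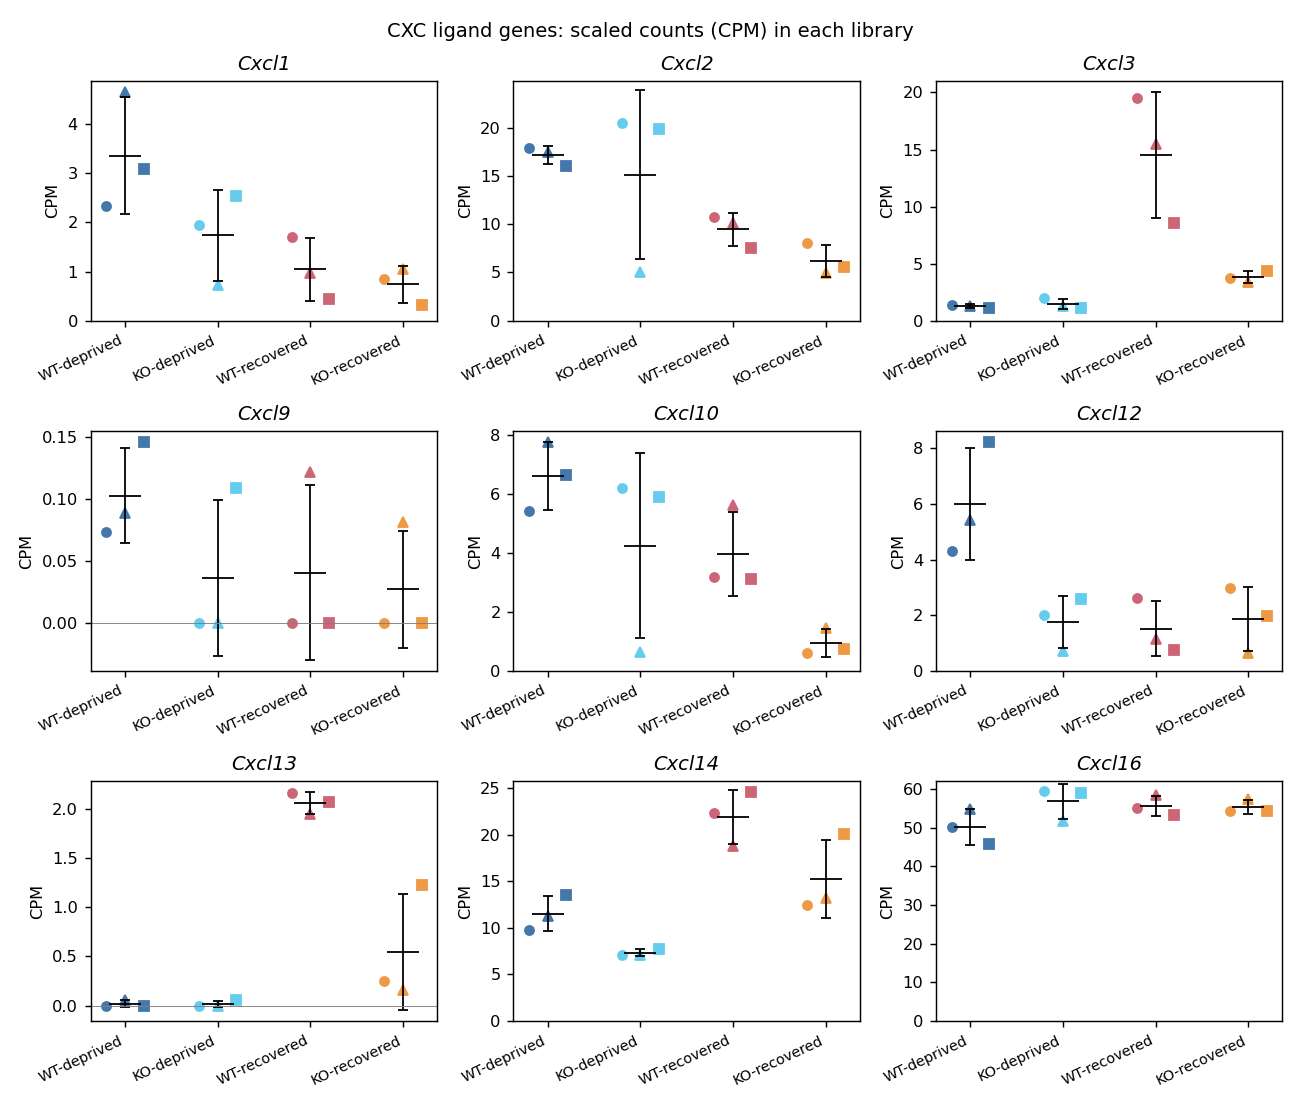
Scaled counts (CPM, linear axis from 0) of each of the 9 genes in the 12 libraries; circles, triangles and squares are replicates 1, 2 and 3 of each group, and bars give the mean and SD of 3 libraries. Cxcl3 and Cxcl13 lie higher in WT-recovered than after OGD, and KO-deprived replicate 2 (triangle) lies low in Cxcl1, Cxcl2, Cxcl10 and Cxcl12.

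Of the 9 genes, 8 passed the filter on low counts. Cxcl9 did not. Cxcl13 passed only through the recovery libraries (3 of WT-recovered and 1 of KO-recovered), so its direction with recovery, and in part between the recovery groups, was fixed by the filter, and nothing is read from its place in the counts that follow. Between genotypes after OGD, Cxcl12 and Cxcl14 were lower in KO and none of the 8 was higher, where 7.49% of all 18842 genes tested were called (0.966% higher and 6.52% lower). After recovery Cxcl3, Cxcl13 and Cxcl14 were lower in KO and none higher, against 22.2% of all genes called (10.1% higher, 12% lower). From OGD to recovery, 3 of 8 rose (Cxcl3, Cxcl13, Cxcl14) and 2 fell (Cxcl1, Cxcl12) in WT, while 56.8% of all genes were called (26.9% higher, 29.9% lower). In KO the genes that rose were those same 3, and Cxcl2 and Cxcl10 fell, against 59% of all genes (29.3% higher, 29.6% lower). The interaction, the change with recovery in KO minus the one in WT, was called for 1 of 8, Cxcl3, which was lower, against 5.25% of all genes (2.89% higher, 2.36% lower). Leaving Cxcl13 aside, 4 of 7 members were called from OGD to recovery in each genotype, shares close to those of all genes. Groups that did not overlap were found for 2 of the 8 genes between genotypes after OGD (30.4% of all genes) and 3 after recovery (33.5%), and for 6 with recovery in WT (67.1%) and 3 in KO (61.2%). Median log2 fold changes of the 8, Cxcl13 included, were -0.39 and -0.55 for KO against WT after OGD and after recovery, beside -0.01 and 0.01 over all genes.

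**Figure D2:**
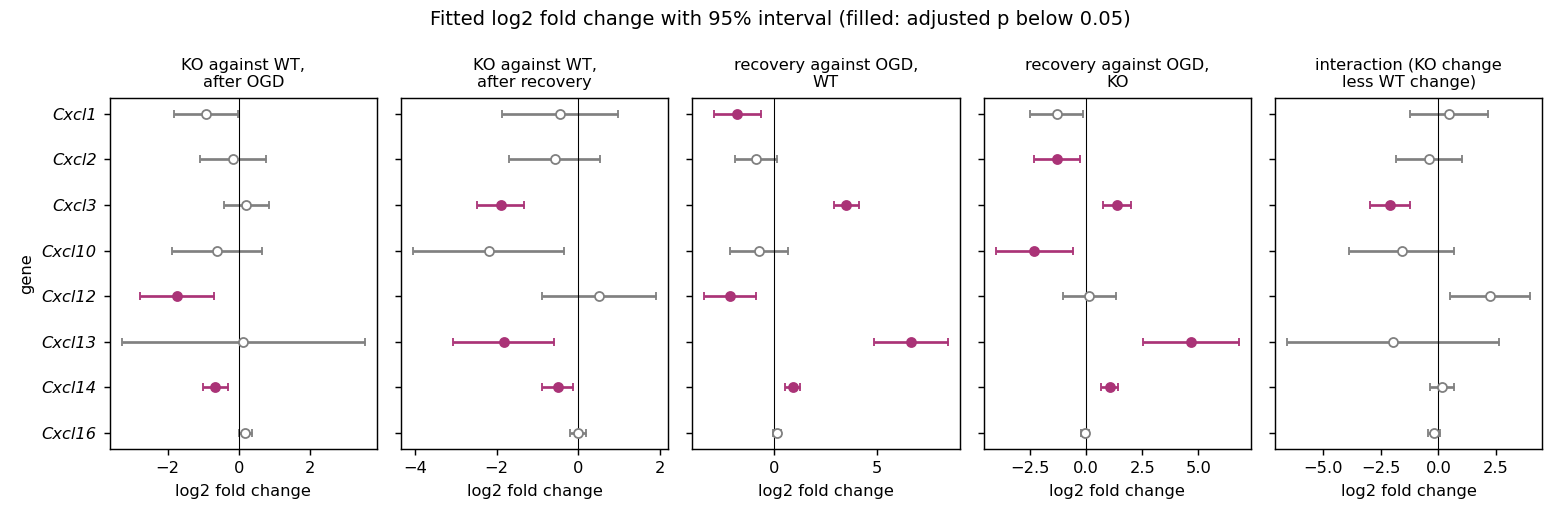
Log2 fold change of the 8 tested genes in the 4 comparisons and the interaction, with 95% intervals from edgeR; filled points have an adjusted p below 0.05, and each panel has its own horizontal scale. Cxcl3 is filled in all panels but that of KO against WT after OGD.

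Cxcl3, a neutrophil attractant, had the lowest adjusted p of the 8 genes between genotypes after recovery. Its level was 1.41, 1.30 and 1.10 CPM in WT-deprived and 1.96, 1.25 and 1.12 CPM in KO-deprived. It was 19.5, 15.5 and 8.58 CPM in WT-recovered and 3.77, 3.35 and 4.34 CPM in KO-recovered. The groups after OGD overlapped, every recovery library stood above every OGD library, and every WT-recovered library stood above every KO-recovered library. The rise was 3.50 on the log2 scale in WT (SE 0.28, 11.3-fold, adjusted p = 1.12e-07) and 1.39 in KO (SE 0.29, 2.63-fold, adjusted p = 8.42e-04). KO-recovered was lower than WT-recovered by 3.74-fold (log2 fold change -1.90, SE 0.27, adjusted p = 2.30e-04), and the genotypes' rises differed by -2.11 (SE 0.40, adjusted p = 0.00812). After OGD alone the genotypes differed by 0.20 (95% interval -0.43 to 0.84, adjusted p = 0.801). The genotype difference after recovery and the interaction were called under all 20 and 19 alternative settings, at -2.18 to -1.58 and -2.39 to -1.81. Without WT-recovered replicate 1, the library whose fields disagree, they were -1.66 (adjusted p = 7.16e-04) and -1.87 (adjusted p = 0.0137). In 1 alternative KO-recovered replicates 1 and 3 were both left out, so that group held 1 library and the other groups gave the spread. The rise in KO was then 1.17.

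Beside the lower Cxcl3 of KO-recovered, astrocyte markers were lower too: 8 of 11 were called lower, and the list summed to 87.8 to 149 CPM against 284 to 314 CPM in WT-recovered. Their part in the Cxcl3 result was not tested. The sum of the monocyte markers in KO-recovered and WT-recovered (1100 to 1310 against 513 to 836 CPM, 8 genes, Plac8 at 0 in the other 3 groups) was mostly Fn1 (970 to 1200 against 397 to 732 CPM), which other cells make too. Of 4 neutrophil markers tested, 2 (Mmp8 and Csf3r) were called higher in KO-recovered than in WT-recovered and 0 lower. Of all genes, 10.1% were called higher there. Ly6g, a defining neutrophil marker, was at 0 in every library. S100a9 and Retnlg, also on that list, had 17 and 3 counts, all of them in KO-recovered. The part of monocytes and neutrophils in the Cxcl3 result was not tested. In bulk RNA, fewer cells of a type and less RNA per cell cannot be told apart.

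Markers of other cells also moved with recovery, beside all the recovery changes given here. In WT all 10 oligodendrocyte markers were called higher (157 to 164 CPM in sum after OGD, 314 to 361 after recovery), as were 8 of 9 tested neuron markers (10.6 to 13.4 and 37.0 to 43.9 CPM). In KO the same lists had 8 of 10 (154 to 158 and 261 to 317 CPM) and 8 of 9 (4.14 to 5.25 and 7.51 to 20.0 CPM) called higher. Mog, Mobp, Nefl and Gad2 on these lists passed the filter only through recovery libraries. A fluorescence sort for microglia should leave such cells out, and their part in the recovery changes was not tested.

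Cxcl2, a close relative of Cxcl3 with the same receptor, took the opposite course. It stood at 17.9, 17.5 and 16.1 CPM in WT-deprived and 20.5, 5.03 and 19.9 CPM in KO-deprived. After recovery it was 10.8, 10.1 and 7.54 CPM in WT and 8.08, 4.90 and 5.62 CPM in KO. All WT-recovered libraries lay below all WT-deprived libraries, whereas KO-deprived replicate 2 fell among the KO-recovered values. The fall was called in KO (log2 fold change -1.28, SE 0.46, adjusted p = 0.0354) and not in WT (-0.86, SE 0.45, adjusted p = 0.129), and the difference between these falls was not called (-0.41, 95% interval -1.85 to 1.03, adjusted p = 0.782). Without KO-deprived replicate 2 the fall in WT was called as well (-0.85, adjusted p = 3.08e-04), because the fit estimates a gene's spread over all 12 libraries. The fall in KO was not called under 7 of 20 alternatives, among them leaving out KO-deprived replicates 1 or 3 or KO-recovered replicates 2 or 3 (adjusted p from 0.100 to 0.116).

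The excess of Cxcl2 over Cxcl3 was smaller after recovery. The ratio of Cxcl2 to Cxcl3, each per kb of exon, was 21.3, 22.8 and 24.8 in WT-deprived and 17.7, 6.81 and 29.9 in KO-deprived. It was 0.939, 1.10 and 1.49 in WT-recovered and 3.62, 2.48 and 2.19 in KO-recovered. Recovery libraries of both genotypes thus lay below all OGD libraries, and the WT-recovered ratios lay below those of KO-recovered. Sequence shared between the pair is small: 5.84% of the 50-base runs of Cxcl2 transcripts also occur in another gene of the same strand, Cxcl3, and 4.24% of those of Cxcl3 occur elsewhere, so a few reads may be split between them.

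Cxcl1, which also binds CXCR2, was low in every group. It stood at 2.34, 4.66 and 3.08 CPM in WT-deprived and 1.94, 0.723 and 2.54 CPM in KO-deprived. After recovery the values were 1.71, 0.977 and 0.444 CPM in WT and 0.843, 1.06 and 0.321 CPM in KO. Every WT-recovered library lay below every WT-deprived library, and both pairs of genotype groups overlapped. The fall in WT was -1.77 (SE 0.52, adjusted p = 0.0110), a call lost without WT-recovered replicate 3 (-1.40, adjusted p = 0.0540). In KO the fall was -1.30 (SE 0.54, adjusted p = 0.0555), and the genotypes differed by -0.93 after OGD (95% interval -1.83 to -0.02, adjusted p = 0.261). Without KO-deprived replicate 2 the fall in KO was called (-1.64, adjusted p = 0.00850).

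These 3 genes lie in a cluster on chromosome 5 (GRCm38): Cxcl3 at chr5:90786103-90789600, Cxcl1 at chr5:90891241-90893115 and Cxcl2 at chr5:90903871-90905938. To the left of Cxcl3 stand Cxcl5 and the platelet chemokine genes Ppbp and Pf4, and Cxcl15 stands between Cxcl3 and Cxcl1. Neighbours in the cluster did not move as a block. Pf4, the nearest tested gene to Cxcl3 and also a marker of border macrophages, was 3.93, 3.95 and 3.82 CPM in WT-deprived and 4.73, 4.60 and 3.80 CPM in KO-deprived. It was 88.4, 91.6 and 60.1 CPM in WT-recovered and 235, 286 and 421 CPM in KO-recovered. The KO-recovered libraries thus stood above those of WT-recovered, the reverse of Cxcl3, with a log2 fold change of 1.97 (SE 0.20, adjusted p = 4.70e-05) and an interaction of 1.81 (SE 0.31, adjusted p = 0.00750). Of the other 7 border macrophage markers, 3 (Siglec1, Folr2 and F13a1) were called higher in KO-recovered and 0 lower, where 10.1% of all genes were called higher. The sums of the 7 overlapped (1020 to 1260 CPM in KO-recovered and 861 to 1180 CPM in WT-recovered). Over all libraries together most of their counts were of Mrc1 (257473, beside 25592 of Siglec1, the next). The part of these cells in the Pf4 result was not tested.

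Ppbp had 2, 2 and 6 counts in WT-deprived, 3, 19 and 7 in KO-deprived, 28, 64 and 99 in WT-recovered and 4, 1 and 8 in KO-recovered. Like Cxcl3 it was higher in all WT-recovered than in all KO-recovered libraries (log2 fold change of KO against WT -4.24, SE 0.61, adjusted p = 2.77e-04). Ppbp reached the level the filter asks for in all 3 WT-recovered libraries but in only 1 of KO-deprived and 1 of KO-recovered, so it was tested because of the group in which it is high. With that limit, its rise was called in WT (5.83, SE 0.62, adjusted p = 2.22e-06) and not in KO (-0.12, SE 0.79, adjusted p = 0.902), and the interaction was -5.96 (SE 1.01, adjusted p = 0.00455). Cxcl5 missed the filter with 7, 35 and 3 counts in WT-recovered, 3, 5 and 0 in KO-recovered and at most 4 in any OGD library. Cxcl15 had 1 count in all 12 libraries together.

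**Figure D3:**
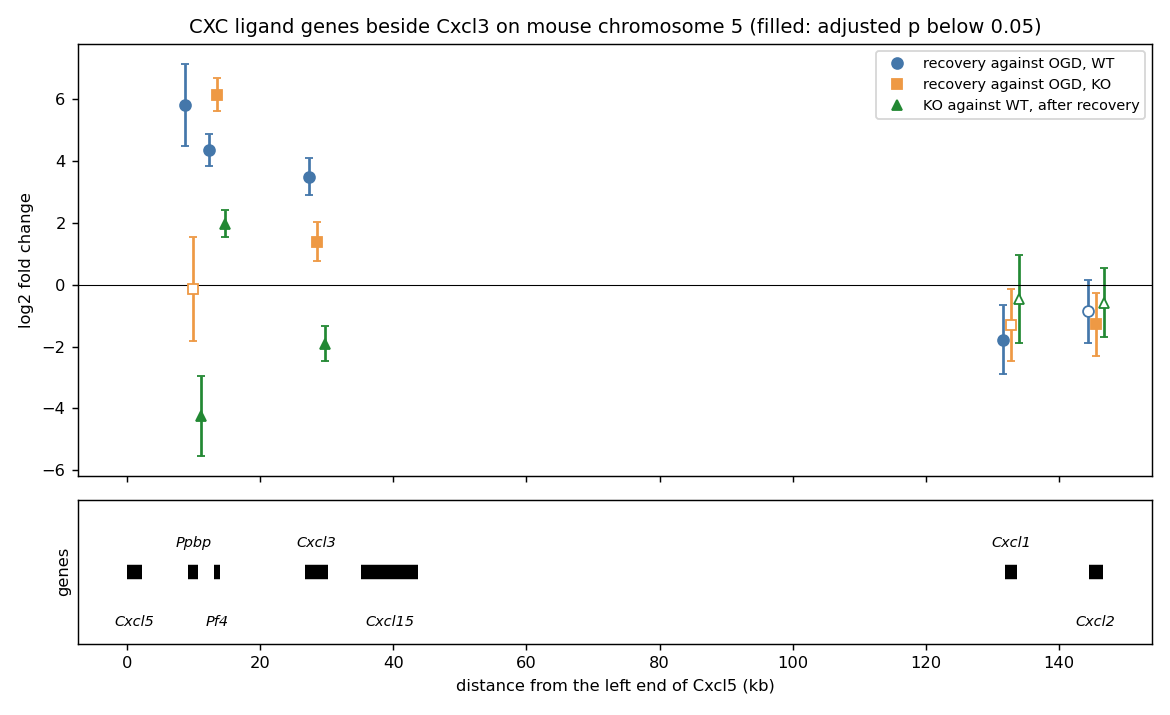
Upper panel, log2 fold changes with 95% intervals of the tested CXC ligand genes near Cxcl3 against their position in kb from the left end of Cxcl5; lower panel, the genes to scale. Filled points have an adjusted p below 0.05; after recovery (green triangles) Ppbp and Cxcl3 were lower and Pf4 was higher in KO, and open points mark values that were not called.

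Cxcl10, the interferon-induced T cell attractant, had its lowest values in KO-recovered. It was 5.44, 7.76 and 6.65 CPM in WT-deprived and 6.20, 0.624 and 5.91 CPM in KO-deprived. After recovery it was 3.20, 5.62 and 3.11 CPM in WT and 0.595, 1.47 and 0.750 CPM in KO. The recovery groups did not overlap, while KO-deprived replicate 2 lay as low as KO-recovered. KO against WT after recovery gave -2.20 (SE 0.82, adjusted p = 0.0848) and was not called by edgeR's quasi-likelihood test over all libraries. Fitted to the 6 recovery libraries alone, it was called (-2.16, adjusted p = 0.00310), as it was without KO-deprived replicate 2 (-2.19, adjusted p = 3.76e-04) and by DESeq2 (-2.09, adjusted p = 0.0234). With the fit that had no filter on low counts, 4 of 20 alternatives called it and 16 did not. The fall from OGD to recovery was called in KO (-2.29, SE 0.77, adjusted p = 0.0273) and not in WT (-0.70, SE 0.62, adjusted p = 0.366), though there it was without KO-deprived replicate 2 (-0.68, adjusted p = 0.0263). The difference between these falls was not called (-1.59, SE 1.01, adjusted p = 0.420), but was without KO-deprived replicate 2 (-2.09, adjusted p = 0.00999). Of the alternatives, only 3 of 20 called the fall in WT and 2 of 19 the difference between the falls. The fall in KO was not called with the replicate block (-2.26, adjusted p = 0.0586) or under 7 other of the 20 alternatives, and without that same library it was -2.77 (adjusted p = 5.17e-06).

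The body of Art3 holds the whole of Cxcl10 (chr5:92346638-92348889) on the other strand, and reads there count for both. Art3 had 236, 272 and 335 counts in WT-deprived where Cxcl10 had 223, 263 and 320, and over all libraries the totals were 1584 and 1509. Art3 thus had only 75 counts beyond those of Cxcl10, and the strand of the shared reads is not known from the counts. Cxcl9, the sister gene of Cxcl10, had 3, 3 and 7 counts in WT-deprived, 0, 0 and 4 in KO-deprived, 0, 2 and 0 in WT-recovered and 0, 1 and 0 in KO-recovered. It was not tested, and a difference between groups was not detectable at this depth: the count ratio of WT-recovered to WT-deprived, scaled to library size, was 0.489 with an exact 95% interval of 0.0536 to 2.16. Cxcl11 had 2 counts in all.

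Cxcl12, which binds CXCR4 and is made by stromal, vascular and glial cells in many tissues, was lower in KO than in WT after OGD. Its level was 4.32, 5.43 and 8.23 CPM in WT-deprived and 1.99, 0.723 and 2.57 CPM in KO-deprived. After recovery it was 2.63, 1.16 and 0.740 CPM in WT and 2.97, 0.653 and 1.98 CPM in KO. WT-deprived stood above all other libraries, and the other 3 groups overlapped. The genotype difference after OGD was -1.75 (SE 0.47, 3.36-fold lower, adjusted p = 0.0463), and the fall in WT was -2.11 (SE 0.57, adjusted p = 0.00743). In KO the change was 0.14 (95% interval -1.04 to 1.33, adjusted p = 0.839), and the interaction was 2.25 (SE 0.79, adjusted p = 0.132). The fall in WT was called under all 20 alternatives. The genotype difference was lost under 10 of 20, including leaving out any 1 of the 6 OGD libraries (-2.10 to -1.38, adjusted p from 0.0520 to 0.207).

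Markers of other cell types moved with Cxcl12 in some comparisons and against it in others. After OGD all 11 astrocyte markers were called lower in KO (56.8 to 81.5 CPM in sum, against 141 to 205 in WT-deprived), and Gja1, 1 of the 11, was among the 3 genes most like Cxcl12 (root mean square difference 0.31), after Slit3 (0.27) and Stmn2 (0.30). With recovery in WT, where Cxcl12 fell, the astrocyte sum was higher instead (284 to 314 CPM; 3 of 11 called higher and 2 lower, Gja1 among the lower). Within each of the 4 groups, the 3 libraries ranked alike by Cxcl12 and by the summed mural and fibroblast markers. These sums were 35.7, 70.5 and 85.7 CPM in WT-deprived and 42.9, 18.7 and 46.6 CPM in KO-deprived. They were 163, 65.6 and 51.7 CPM in WT-recovered and 358, 19.8 and 287 CPM in KO-recovered. Between groups the order differed, as Cxcl12 was highest in WT-deprived. Without KO-recovered replicates 1 and 3, which leaves 1 library in that group, Cxcl12 in KO against WT after recovery changed from 0.50 to -1.08. The fluorescence sort for microglia should have left such cells out. Their part in the Cxcl12 result was not tested.

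Cxcl14, a chemokine of resting tissues that attracts monocytes and dendritic cells, was lower in KO at both times and rose in both genotypes. It was 9.78, 11.3 and 13.5 CPM in WT-deprived and 7.08, 7.13 and 7.77 CPM in KO-deprived. After recovery it was 22.4, 18.8 and 24.6 CPM in WT and 12.5, 13.2 and 20.1 CPM in KO. The OGD groups did not overlap, whereas KO-recovered replicate 3 lay within the range of WT-recovered. KO was lower by 1.58-fold after OGD (-0.66, SE 0.17, adjusted p = 0.0269) and by 1.42-fold after recovery (-0.51, SE 0.17, adjusted p = 0.0467). The rises were 0.92 in WT (SE 0.17, adjusted p = 3.05e-04) and 1.07 in KO (SE 0.17, adjusted p = 9.86e-05), and their difference was 0.15 (95% interval -0.37 to 0.66, adjusted p = 0.791). Both rises were called under all 20 alternatives. The genotype difference after OGD was lost under 5 of them, namely without WT-deprived replicates 2 or 3 or any 1 KO-deprived library (adjusted p from 0.0551 to 0.177). That after recovery was lost under 11, among them leaving out WT-recovered replicates 1 or 3, or KO-recovered replicates 1 or 2 (-0.50 to -0.38, adjusted p from 0.0887 to 0.184). The lower astrocyte markers given above moved with Cxcl14 at both times, and their part was not tested.

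Cxcl13, the ligand of the B cell receptor CXCR5, was almost absent after OGD and present after recovery. It had 0, 2 and 0 counts in WT-deprived and 0, 0 and 2 in KO-deprived. It had 19, 32 and 28 counts in WT-recovered and 5, 2 and 23 in KO-recovered. In CPM the recovery values were 2.17, 1.95 and 2.07 in WT, a narrow range, and 0.248, 0.163 and 1.23 in KO, where replicate 3 stood apart from the others but still below all of WT. Scaled to library size the counts of WT-recovered were 126 times those of WT-deprived (exact 95% interval 33.7 to 1060), and those of KO-recovered were 32.1 times those of KO-deprived (8.14 to 277), both intervals for counting error only. Since the filter kept Cxcl13 through the recovery libraries, these rises are descriptions. KO-recovered was lower than WT-recovered by -1.83 (SE 0.58, 3.55-fold, adjusted p = 0.0339), in a gene that all 3 WT-recovered libraries and only 1 of KO-recovered carried past the filter. With no filter on low counts the difference was -1.82, and its call there is not read as support. Without that filter the adjusted p of edgeR fell far for other members too. For Cxcl10 between the recovery groups it went from 0.0848 to 1.19e-14. The Cxcl13 difference was not called without any 1 WT-recovered library or without KO-recovered replicates 1 or 2 (-1.88 to -1.43, adjusted p from 0.0717 to 0.140). It was -3.24 without KO-recovered replicate 3. The interaction was -1.95 (95% interval -6.55 to 2.64, adjusted p = 0.665). Lymphocyte markers, among them B cell genes, summed to at most 0.595 CPM in every library, and none of the 8 passed the filter.

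Cxcl16, the membrane-bound ligand and scavenger receptor, was the most even member. It was 50.1, 54.9 and 45.7 CPM in WT-deprived and 59.6, 51.7 and 59.1 CPM in KO-deprived. After recovery it was 55.0, 58.5 and 53.3 CPM in WT and 54.3, 57.5 and 54.2 CPM in KO. Groups overlapped in all 4 comparisons. KO against WT was 0.18 after OGD (95% interval -0.00 to 0.36, adjusted p = 0.281) and -0.01 after recovery (95% interval -0.20 to 0.18, adjusted p = 0.954), intervals that exclude changes as large as those called for the other members in these 2 comparisons. Cxcl16 shares 552 bases with Zmynd15 on the other strand, which had 4562 counts in all against 17340, so some counts may belong to Zmynd15.

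**Figure D4:**
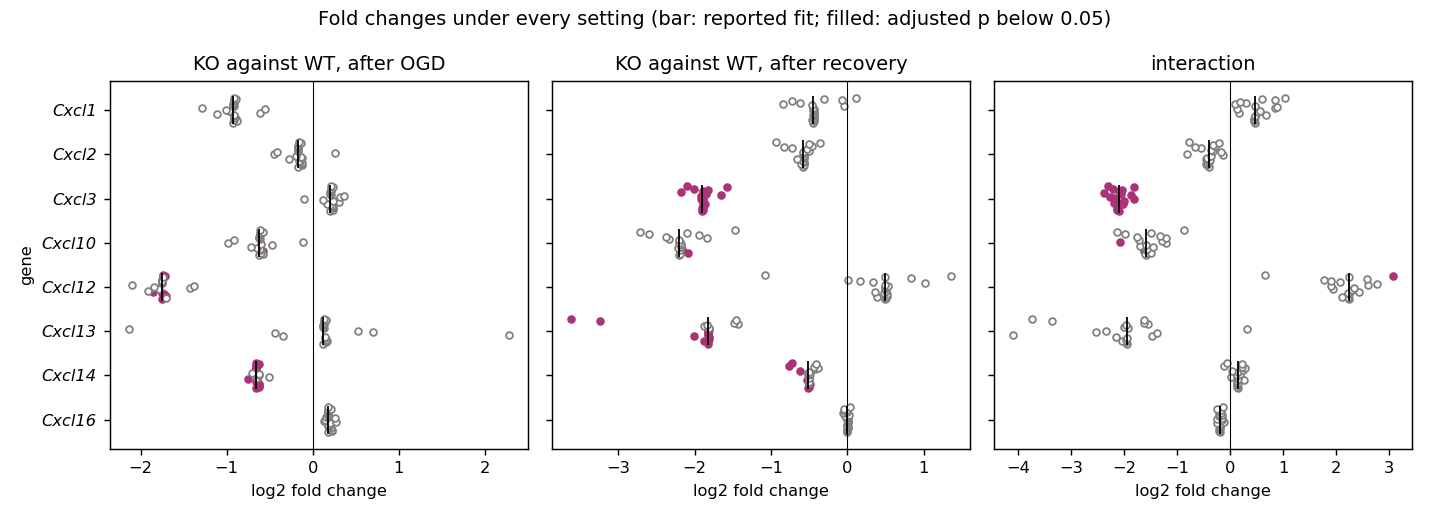
Log2 fold change of the 8 tested genes between genotypes at the end of OGD, between genotypes after recovery, and for the interaction; each point is 1 setting of the analysis or 1 library left out, filled where the adjusted p was below 0.05, and the black bar is the reported value. The points of Cxcl3 are filled throughout the middle and right panels, and those of Cxcl12, Cxcl13 and Cxcl14 are filled only in part.

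Of the 4 receptors tested, 3 were called lower with recovery in both genotypes, where 29.9% of all genes were in WT and 29.6% in KO. Cxcr1 and Cxcr2 passed the filter only through OGD libraries, so their direction was fixed by it, and of the others only Cxcr4 was called. Cxcr4, the Cxcl12 receptor, was 62.0 ± 7.76, 60.8 ± 10.3, 21.7 ± 3.96 and 24.4 ± 3.46 CPM (SD, n = 3 each) in WT-deprived, KO-deprived, WT-recovered and KO-recovered. Its falls were -1.50 in WT (SE 0.16, adjusted p = 2.14e-06) and -1.32 in KO (SE 0.15, adjusted p = 5.06e-06). Cxcr2, the receptor of Cxcl1, Cxcl2 and Cxcl3, had 38 to 49 counts a library in WT-deprived, 15 to 37 in KO-deprived, 1 to 2 in WT-recovered and 1 to 6 in KO-recovered. The fitted log2 fold changes were -3.25 in WT and -1.83 in KO. Cxcr1 had 109 counts in WT-deprived and 74 in KO-deprived and none after recovery, which puts its recovery level at no more than 0.0876 and 0.0867 of that after OGD, with 3 counts over the group as the floor. The decoy receptor Ackr3 was not called in any contrast, and Cxcr3, Cxcr5, Cxcr6 and Ackr1 missed the filter. None of the 4 receptors tested was called between genotypes at either time.

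Genes that act upstream of these ligands were counted by list, for KO against WT after recovery, where Cxcl3 differed and where 10.1% of all genes were called higher and 12% lower. Of 15 NF-kB subunits and regulators, 3 were lower and 0 higher (median log2 fold change -0.05): the inhibitor gene Nfkbia (-0.78, SE 0.12, adjusted p = 3.94e-04), the nuclear cofactor Nfkbiz (-0.91, SE 0.25, adjusted p = 0.0155) and Bcl3 (-0.53, SE 0.13, adjusted p = 0.0105). Nfkbia was 56.9, 62.0 and 62.4 CPM in WT-recovered and 32.0, 29.1 and 44.4 CPM in KO-recovered, groups that did not overlap. Nfkbia and Nfkbiz are themselves known NF-kB targets. The count of 3 is near the share of all genes, and it ran from 2 to 5 under the alternatives. Nfkbiz lost its call under 3 of 20 alternatives (adjusted p up to 0.127) and Bcl3 under 2 (up to 0.210). After OGD none of the 15 was called between genotypes. Of 6 tested cytokines that induce such ligands, Il1b (-1.23, SE 0.24, adjusted p = 0.00180) and Il18 (-1.22, SE 0.15, adjusted p = 6.70e-05) were lower in KO-recovered and none was higher. Il1b was 11.1, 17.8 and 12.1 CPM in WT-recovered and 8.33, 4.98 and 4.07 CPM in KO-recovered. Both overlap other annotated genes, so their counts are uncertain.

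Of 18 interferon receptors and STAT-IRF factors, 9 were higher and 0 lower in KO-recovered than in WT-recovered (median 0.27), and 5 to 10 were higher under the alternatives. Irf8 was higher by 0.76 (SE 0.09, adjusted p = 6.47e-05), the feedback inhibitor Socs3 by 0.51 (SE 0.09, adjusted p = 9.47e-04), Irf1 by 0.49 (SE 0.09, adjusted p = 0.00140) and the receptor subunit Ifnar1 by 0.46 (SE 0.09, adjusted p = 0.00182). Irf1 and Irf8 share bases with other annotated genes. Of 8 decay factors of chemokine RNAs, 2 were higher and 0 lower: Zc3h12a, an RNase known to cut chemokine and cytokine transcripts (0.41, SE 0.10, adjusted p = 0.00999), and Auh (0.36, SE 0.09, adjusted p = 0.00928). With 8 genes this share is near that of all genes called (22.2%). Without KO-recovered replicates 1 and 3, which leaves 1 library in that group, Zc3h12a came to 0.28. Of 9 tested genes for processing and clearance, 4 were higher and 0 lower, all of them matrix metalloproteinases that can trim chemokines. They were Mmp8 (0.77, adjusted p = 0.00177), Mmp9 (2.38, adjusted p = 0.00255), Mmp12 (0.65, adjusted p = 0.0105) and Mmp13 (1.42, adjusted p = 0.0111). Mmp8 kept its call under all 20 alternatives. Without KO-recovered replicates 1 and 3, Mmp9 came to 1.74 and Mmp13 to 1.61. Fitted to the recovery libraries alone, Mmp12 (adjusted p = 0.0651) and Mmp13 (adjusted p = 0.0697) were not called, and Mmp12 was also lost without WT-recovered replicates 2 or 3. Mmp8 is also on the neutrophil marker list. The other 9 genes of that list summed to 44.6 to 66.8 CPM in KO-recovered and 29.6 to 40.3 CPM in WT-recovered. Ly6g was at 0 in both groups, and S100a9 and Retnlg were at 0 in WT-recovered only. Over all libraries together most counts of these 9 were of Csf3r (17608, beside 1103 of S100a8 and 217 of Cxcr2). The part of such cells was not tested.

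**Figure D5:**
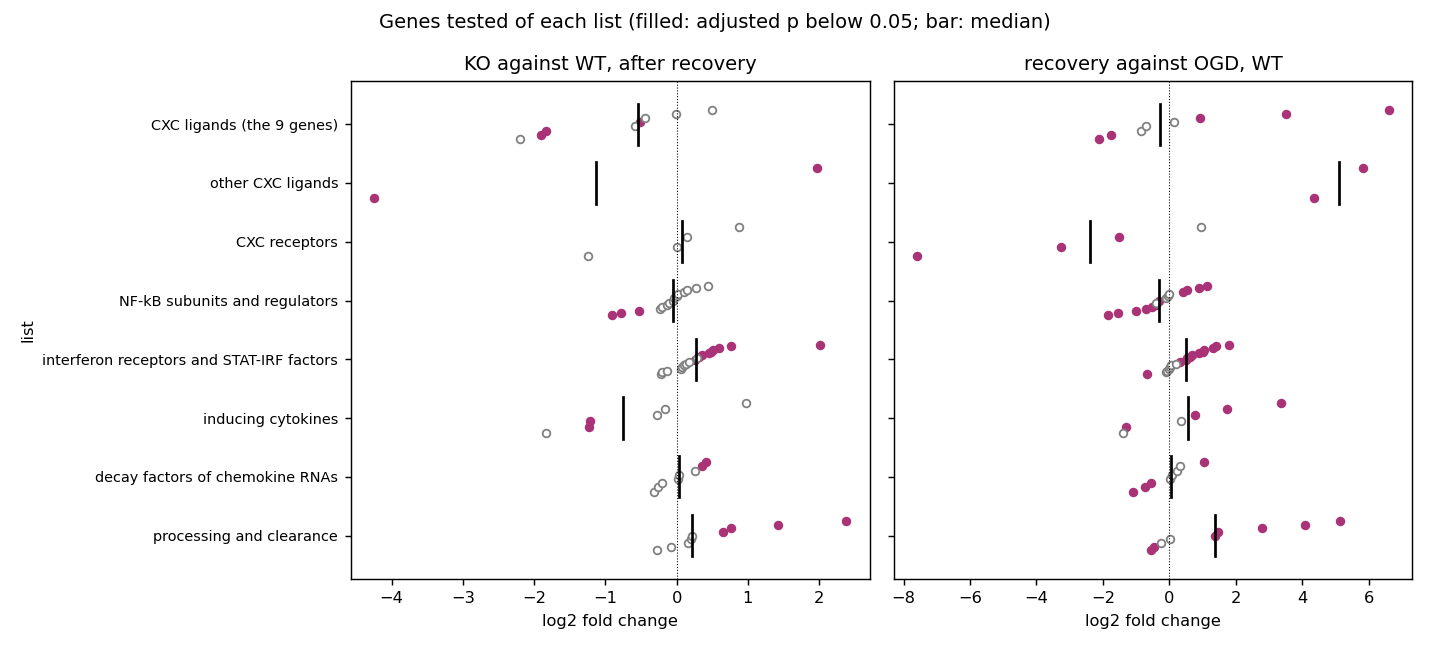
Log2 fold change of every tested gene of the CXC ligand list and 7 pathway lists, for KO against WT after recovery (left) and recovery against OGD in WT (right); filled points have an adjusted p below 0.05 and vertical bars are list medians. On the left, called points of the interferon list lie right of 0 and those of the NF-kB list lie left of it; on the right the leftmost receptor is Cxcr1, which had no count after recovery, so its fitted value depends on the prior count.

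Outside the family, the genes whose profile over the 12 libraries was closest to each member were found by the root mean square difference of centred log2 values, among 12632 genes. Closest to Cxcl3 was Hopx (0.23), with mean levels of 1.27, 1.15, 12.8 and 3.19 CPM in WT-deprived, KO-deprived, WT-recovered and KO-recovered, followed by Stmn3 (0.37) and Pilrb1 (0.39). Closest to Cxcl10 apart from Art3, which shares its reads, was Rnd1 (0.50). Closest to Cxcl14 was Erc2 (0.15), to Cxcl13 AI662270 (0.29), to Cxcl2 Efnb2 (0.29) and to Cxcl1 Trabd2b (0.34). The size of the members' own variation on that scale was 1.25 for Cxcl3, 0.58 for Cxcl14, 0.99 for Cxcl13, 0.72 for Cxcl2, 1.07 for Cxcl10 and 0.78 for Cxcl1. These likenesses are descriptions over libraries that share groups, and they carry no test.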

How the data were processed

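The authors deposited raw counts per gene, whole numbers that are not normalized, for 12 libraries in 4 groups of 3. HISAT2, featureCounts and GRCm38 are named per the submitters' processing notes; versions and counting options are not given in the sources used here. In the deposited counts, a gene's total was at least that of any gene nested in it without shared exons (minimum 500 counts) in all 429 pairs on opposite strands and in 238 of 239 on the same strand in every library. Counts therefore behave as sums over gene bodies of both strands, and overlapping genes share reads. Identifiers were matched to GENCODE M21 (55240 of 55421 without version). The 181 unmatched took at most 0.0394% of a library's counts.

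Counts were fitted in R 4.3.3 with edgeR 4.0.16 (filterByExpr, TMM, robust glmQLFit and glmQLFTest, 1 mean per group over all 12 libraries, no covariate). Benjamini-Hochberg adjustment ran over all 18842 genes tested, and genes below 0.05 were called. The common biological coefficient of variation was 0.119. CPM are counts scaled to 1000000 by TMM-adjusted library size. An SE comes from the log2 fold change and its F statistic, and intervals use 95% t quantiles. Ratios of genes with few counts have exact intervals, which cover counting error only, as the reads carry no molecular identifiers known here and may be copies of a molecule. Replicate pairs differed by more than sampling noise (chi-square per degree of freedom 6.66 to 60.2), so each library counted once. The fit was tested on simulated data.

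Members and lists were chosen with earlier results of these data known. All members are named in every comparison. All receptors and other CXC ligands could be named; of other lists, at most 4 called genes of lowest adjusted p in each comparison. The genes most like a member were the 3 of smallest difference with a mean of at least 1 CPM, on log2(CPM + 0.5). Marker lists covered microglia, astrocytes, oligodendrocytes, neurons, endothelium, mural cells and fibroblasts, border macrophages, monocytes, neutrophils, dendritic cells, lymphocytes, and muscle and cartilage. Alternatives were other normalization, DESeq2 1.42.0, other filters, fewer libraries, a replicate block and leaving out libraries. Leaving out KO-recovered replicates 1 and 3 together left 1 library in that group, so the other groups gave its spread. That setting is included in the counts of alternatives. Promoter sequences are from RefSeq (GRCm38.p6).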

Additional observations from a re-analysis of the deposited data

Results flagged for a closer look

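In 8 genes the recovery change differed between genotypes by a test of that difference itself (the interaction of edgeR's quasi-likelihood fit over 12 libraries, adjusted over 18842 genes, of which 5.25% were called). These are all the calls among the members (1 of 8 tested) and the pathway lists. The lists had calls in other CXC ligands (2 of 2), NF-kB genes (1 of 15), interferon genes (2 of 18), decay factors (1 of 8) and processing genes (1 of 9). None of 4 receptors or 6 cytokines tested was called. For Cxcl3 the interaction was -2.11 (SE 0.40), since the rise was smaller in KO. Among other CXC ligands it was -5.96 for Ppbp (SE 1.01), which was higher in WT-recovered than in the other groups and was tested because of that group, and 1.81 for Pf4 (SE 0.31), which rose more in KO. It was 1.21 for Mmp8 (adjusted p = 0.00485), a metalloproteinase that rose from 24.6 ± 4.57 to 419 ± 76.1 CPM in WT and from 18.2 ± 1.47 to 715 ± 90.6 CPM in KO (SD, n = 3 each). For Irf8 it was 0.79 (SE 0.13, adjusted p = 0.00332). These 5 calls were kept under every alternative setting tried.

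The other 3 differences were small and were not kept throughout. That of Nfkbia was -0.71 (SE 0.17, adjusted p = 0.0242) and missed the threshold without 8 of the 12 libraries, each left out in turn (adjusted p up to 0.0719). That of Socs3 was 0.55 (SE 0.12, adjusted p = 0.0195), with adjusted p up to 0.0660 under the alternatives. That of Auh was 0.46 (SE 0.12, adjusted p = 0.0427) and missed it under 16 of 19 alternatives (up to 0.147). The interaction compares all 4 groups, which differ in Xist (almost absent in WT-recovered), so the sex makeup of the cells and the interaction cannot be told apart.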

How the results depend on the processing

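Depth limits Cxcl9, Cxcl13 and the recovery libraries most. Counts of members called moved as follows; where no cause is given, it was not tested. After OGD (2 members, 1411 genes called for KO against WT), DESeq2 size factors called 1 member, no filter on low counts called 4 members and 2148 genes, and leaving out 1 library called 0 to 2 members and 524 to 1742 genes. After recovery (3 members, 4175 genes), no filter called 5 members, fitting the compared libraries alone called 2756 genes, leaving out the libraries of highest mitochondrial share (WT-recovered 1, KO-recovered 2) called 1 member, and leaving out 1 library called 1 to 4 members and 2653 to 5279 genes. For recovery in KO (5 members), fitting the compared libraries alone called 2, leaving out the high mitochondrial libraries 3, and leaving out 1 library called 3 to 6. Counts without KO-recovered 1 and 3 are not given, since that leaves 1 library in the group. For recovery in WT (5 members), leaving out 1 library called 4 to 7. For the interaction (1 member, 989 genes), DESeq2 called 1517 genes, no filter called 3 members and 1980 genes, leaving out the high mitochondrial libraries called 2 members, and leaving out 1 library called 1 to 2 members and 479 to 1770 genes.

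Replicate numbers do not pair the libraries: the correlations of same-numbered deviations ran from -0.26 to 0.19, and 3 of 18 were the best match. With the replicate block, the interaction called 657 genes, and among members only the fall of Cxcl10 in KO lost its call.

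Signs turned only where no call was made. Cxcl16 in KO against WT after recovery came to 0.00 (DESeq2, its size factors, or the compared libraries alone), 0.01 (no filter, or at least 1 CPM in 3 libraries) and 0.04 (without KO-recovered 1 and 3), and from -0.05 to 0.02 with 1 library left out. Without KO-recovered 1 and 3, Cxcl1 came to 0.12 and Cxcl12 to -1.08 for KO against WT after recovery, Cxcl12 to -1.47 for recovery in KO, and Cxcl14 to -0.07 for the interaction. With 1 library left out, KO against WT after OGD ran from -2.14 to 2.28 for Cxcl13, -0.45 to 0.26 for Cxcl2 and -0.10 to 0.36 for Cxcl3, recovery in KO from -0.36 to 0.49 for Cxcl12, and the interaction from -4.10 to 0.31 for Cxcl13 and -0.11 to 0.28 for Cxcl14.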

Other observations

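Shares of the summed level of the 9 genes (CPM per kb of exon) shifted with recovery. Cxcl2 made up 22.4% ± 1.85 of the sum in WT-deprived and 10.5% ± 1.34 in WT-recovered (SD, n = 3 each), and 20.4% ± 9.09 and 9.35% ± 2.78 in KO. Cxcl3 went from 0.983% ± 0.148 to 9.43% ± 3.14 in WT and from 1.26% ± 0.360 to 3.38% ± 0.259 in KO. Cxcl14 went from 17.1% ± 2.93 to 27.7% ± 4.81 in WT and from 12.4% ± 3.07 to 25.7% ± 5.26 in KO. The sum itself was 37.1 ± 2.46, 33.6 ± 7.85, 43.5 ± 2.56 and 32.3 ± 2.07 CPM per kb in WT-deprived, KO-deprived, WT-recovered and KO-recovered. In this sum of 9 genes, all KO-recovered libraries lay below all WT-recovered libraries. The sum leaves out Pf4, which had more CPM than Cxcl16 in every recovery library and was higher in KO-recovered than in WT-recovered. It is therefore not the level of the whole family. These shares were chosen after their values were seen and carry no test.

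KO-deprived replicate 2 was the lowest library of its group in Cxcl1, Cxcl2, Cxcl10 and Cxcl12. It was also the lowest in Cxcl16, by less (51.7 CPM, beside 59.6 and 59.1 CPM), while its Cxcl14 level lay within the range of its group. Its summed mural and fibroblast markers (18.7 CPM) were also the lowest of its group, beside 42.9 and 46.6 CPM in replicates 1 and 3. Its astrocyte markers (56.8 CPM) stood near those of replicate 1 (60.2 CPM). What sets this library apart was not tested.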
